A study of Homo sapiens with 12 samples.

Results

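The insulin-like growth factor (IGF) axis was followed here through 10 genes: the ligand gene *IGF2*, the receptor genes *IGF1R* and *IGF2R*, and the genes of the IGF-binding proteins, *IGFBP1* to *IGFBP7*. They were chosen by gene symbol from the 43236 symbols counted in each library, and all 10 were present and had enough counts to be tested among 15979 genes. *IGF2* reached the required level only in the 24 h libraries. MNNG/HOS, written HOS-MNNG in the labels, is a line of human bone tumour cells made from the HOS line by a chemical carcinogen, and was grown with fetal bovine serum. Messenger RNA was sequenced from cells given DMSO, the solvent of the drug, for 6 h or 24 h, or 300 nM NXP800 for 6 h or 24 h. Each of the 4 conditions has 3 libraries, numbered as replicates. The methods speak of independent experiments in general and the labels do not describe the replicates further, so p-values measure the spread between these libraries, part of which may be technical. NXP800 is a small molecule first developed against the heat shock pathway and studied here as an activator of the integrated stress response (ISR).

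Counts on genes lay between 30810614 and 31947656 per library. Read pairs outside annotated genes made up 6.66 to 8.14% in the 6 h libraries and 2.73 to 3.67% in the 24 h libraries, and NXP800 was compared with DMSO within each time point. Time of treatment and any technical difference between the 6 h and 24 h libraries cannot be told apart. A list of 8 ISR target genes was higher at both times for 8 of 8 genes, with medians of 3.27 (6 h) and 2.41 (24 h) on the log2 scale, beside 25.0% and 27.5% of all tested genes that were higher. Of 8 osteoblast lineage markers only *RUNX2*, *COL1A1* and *SPARC* had enough counts to be tested, whereas *SP7*, *BGLAP* and *IBSP* had at most 2 counts in any library. *RUNX2* was higher under NXP800 (log2 fold change 0.71 at 6 h, 0.36 at 24 h), while *COL1A1* (-0.50 and -0.76) and *SPARC* (-0.79 and -2.02) were lower. The blood cell markers *PTPRC*, *CD3E* and *LYZ* had at most 5 counts. Of the hepatocyte markers, *TTR* had 0 counts, *ALB* at most 5, *APOA1* 3 to 17 and *SERPINA1* 9 to 39, and *SERPINA1* was lower at 24 h (log2 fold change -1.42, adjusted p = 0.00158). The epithelial marker *EPCAM* had 170 to 325 counts, while *CDH1*, *KRT19* and *KRT5* had at most 5, and *EPCAM* was higher under NXP800 at 24 h (log2 fold change 0.81). Endothelial markers (*PECAM1*, *CDH5*, *VWF*, *TEK*) had at most 29 counts. *PECAM1* (log2 fold change -1.17) and *VWF* (-1.33) were lower at 6 h and *VWF* (-2.07) at 24 h. The part of these markers in the results was not tested.

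In this axis IGF1 and IGF2 bind the receptor tyrosine kinase IGF1R, which signals to the PI3K/AKT and MAP kinase pathways. IGF2R is the cation-independent mannose 6-phosphate receptor, which takes up IGF2 for degradation and carries newly made enzymes to lysosomes. IGFBP1 to IGFBP6 are secreted proteins that bind IGFs with high affinity and can hold them away from the receptor or release them when cut by proteases such as pappalysins. IGFBP7 binds IGFs only weakly. In bone, IGFBP4 is known mainly as an inhibitor of IGF action and IGFBP5 as a protein stored in the matrix, and IGF signalling is a known growth pathway of osteosarcoma cells.

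Of the binding protein genes 4 lie as neighbours in the genome. *IGFBP1* (chromosome 7, 45888488 to 45893660, plus strand, GRCh38.p14) and *IGFBP3* (45912245 to 45921272, minus strand) face each other across 18.6 kb. *IGFBP2* (chromosome 2, 216632828 to 216664436, plus strand) and *IGFBP5* (216672105 to 216695549, minus strand) face each other across 7.67 kb. The pair on chromosome 7 had higher counts under NXP800 in all libraries at both times and the pair on chromosome 2 had lower counts, with the tests given below. At 6 h *IGFBP3* and *IGFBP2* did not pass (edgeR, adjusted p = 0.251 and 0.0585). *IGFBP1* barely separated at 6 h (2.67 against 2.62 CPM, counts scaled by library size and TMM factor). The share of all tested genes that separate in this way is not given here. *IGFBP4* lies on chromosome 17 from 40443450 to 40457725, *IGFBP6* on chromosome 12 from 53097667 to 53102340 and *IGFBP7* on chromosome 4 from 57030773 to 57110385. *IGF2* lies on chromosome 11 from 2129117 to 2149566, *IGF1R* on chromosome 15 from 98648539 to 98964530 and *IGF2R* on chromosome 6 from 159969082 to 160111504.

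Promoter sequences from RefSeq (GRCh38.p14) were matched for 7 of the 10 genes and not for *IGFBP1*, *IGFBP7* and *IGF2*. The 250 bases before the start are shown for 4 genes with the clearest changes: *IGFBP3*, which was higher at 24 h, *IGFBP4* and *IGFBP5*, which were lower at both times, and *IGF1R*, which was higher at 6 h. Capitals mark the motifs found on either strand among 6 that were searched. These were the C/EBP-ATF response element TGATGNAA, the insulin response element core CAAAACA, the TATA box TATAAA, the CCAAT box CCAAT, the GC box GGGCGG, and the ER stress response element, whose letters include a CCAAT box.
IGFBP3, chr7:45921273-45921522, minus strand: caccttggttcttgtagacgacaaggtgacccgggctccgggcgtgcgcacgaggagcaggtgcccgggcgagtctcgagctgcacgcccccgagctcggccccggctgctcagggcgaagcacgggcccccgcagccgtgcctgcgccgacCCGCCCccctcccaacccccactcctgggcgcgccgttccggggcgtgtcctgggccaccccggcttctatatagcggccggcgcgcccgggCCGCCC
IGFBP4, chr17:40443200-40443449, plus strand: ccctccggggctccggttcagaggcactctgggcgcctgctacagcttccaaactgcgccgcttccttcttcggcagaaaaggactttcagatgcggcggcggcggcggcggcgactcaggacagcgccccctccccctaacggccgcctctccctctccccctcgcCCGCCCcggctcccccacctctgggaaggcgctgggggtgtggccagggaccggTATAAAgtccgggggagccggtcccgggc
IGFBP5, chr2:216695550-216695799, minus strand: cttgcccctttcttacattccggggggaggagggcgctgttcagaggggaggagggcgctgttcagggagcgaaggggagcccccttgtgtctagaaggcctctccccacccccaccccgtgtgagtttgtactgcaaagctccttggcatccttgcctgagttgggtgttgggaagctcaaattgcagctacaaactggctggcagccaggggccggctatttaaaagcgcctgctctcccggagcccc
IGF1R, chr15:98648289-98648538, plus strand: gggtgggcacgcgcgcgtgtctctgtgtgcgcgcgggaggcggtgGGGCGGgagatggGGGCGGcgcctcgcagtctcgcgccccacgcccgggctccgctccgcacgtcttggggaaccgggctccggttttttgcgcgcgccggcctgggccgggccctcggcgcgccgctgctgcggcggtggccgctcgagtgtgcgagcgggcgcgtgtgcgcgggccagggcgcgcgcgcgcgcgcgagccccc

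The *IGFBP4* window holds TATAAA beginning 29 bases before the start and a GC box at 83 bases, the *IGFBP3* window GC boxes at 98 and 6 bases, and the *IGF1R* window GC boxes at 205 and 192 bases. The *IGFBP5* window holds none of the 6 motifs. The letters of the C/EBP-ATF response element, present in 3.14% of 35116 promoter windows of this length, were in none of the windows of the 7 matched genes, and neither was CAAAACA (4.30% of windows). TATAAA was in 10.7% of all windows, the GC box in 42.6%, the CCAAT box in 32.0% and the ER stress response element in 0.0740%. G and C made up 81.2% of the *IGF1R* window, 76.0% of that of *IGFBP3*, 71.6% of that of *IGFBP4* and 61.2% of that of *IGFBP5*, against a median of 58.0% over all windows. These are matches of letters and not measured binding sites.

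At 6 h NXP800 changed 5 of the 10 genes. *IGF1R* rose 2.19-fold, *IGFBP1* 1.74-fold and *IGF2R* 1.21-fold, while *IGFBP5* fell to 0.377 and *IGFBP4* to 0.655 of their DMSO level. A gene is called changed at an adjusted p below 0.05 over all tested genes. In this comparison 52.8% of all tested genes were called, 25.0% higher and 27.8% lower, so 5 of 10 is near the background share. The median log2 fold change of the 10 genes was -0.19, beside -0.046 over all tested genes.

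At 24 h NXP800 changed 8 of the 10 genes. *IGFBP1* rose 5.54-fold, *IGFBP3* 3.46-fold and *IGF2R* 1.36-fold, while *IGFBP5* fell to 0.0680, *IGFBP4* to 0.314, *IGFBP7* to 0.458, *IGF2* to 0.562 and *IGFBP2* to 0.590 of their DMSO level. Of all tested genes 56.0% were called at 24 h, 27.5% higher and 28.6% lower. The median log2 fold change of the 10 genes was -0.42, beside -0.003 over all tested genes. The median size of the log2 fold change over all tested genes, regardless of sign, was 0.38, and 8 of the 10 genes exceeded it. At 6 h this median was 0.34, and 4 of the 10 exceeded it.

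**Figure D1:**
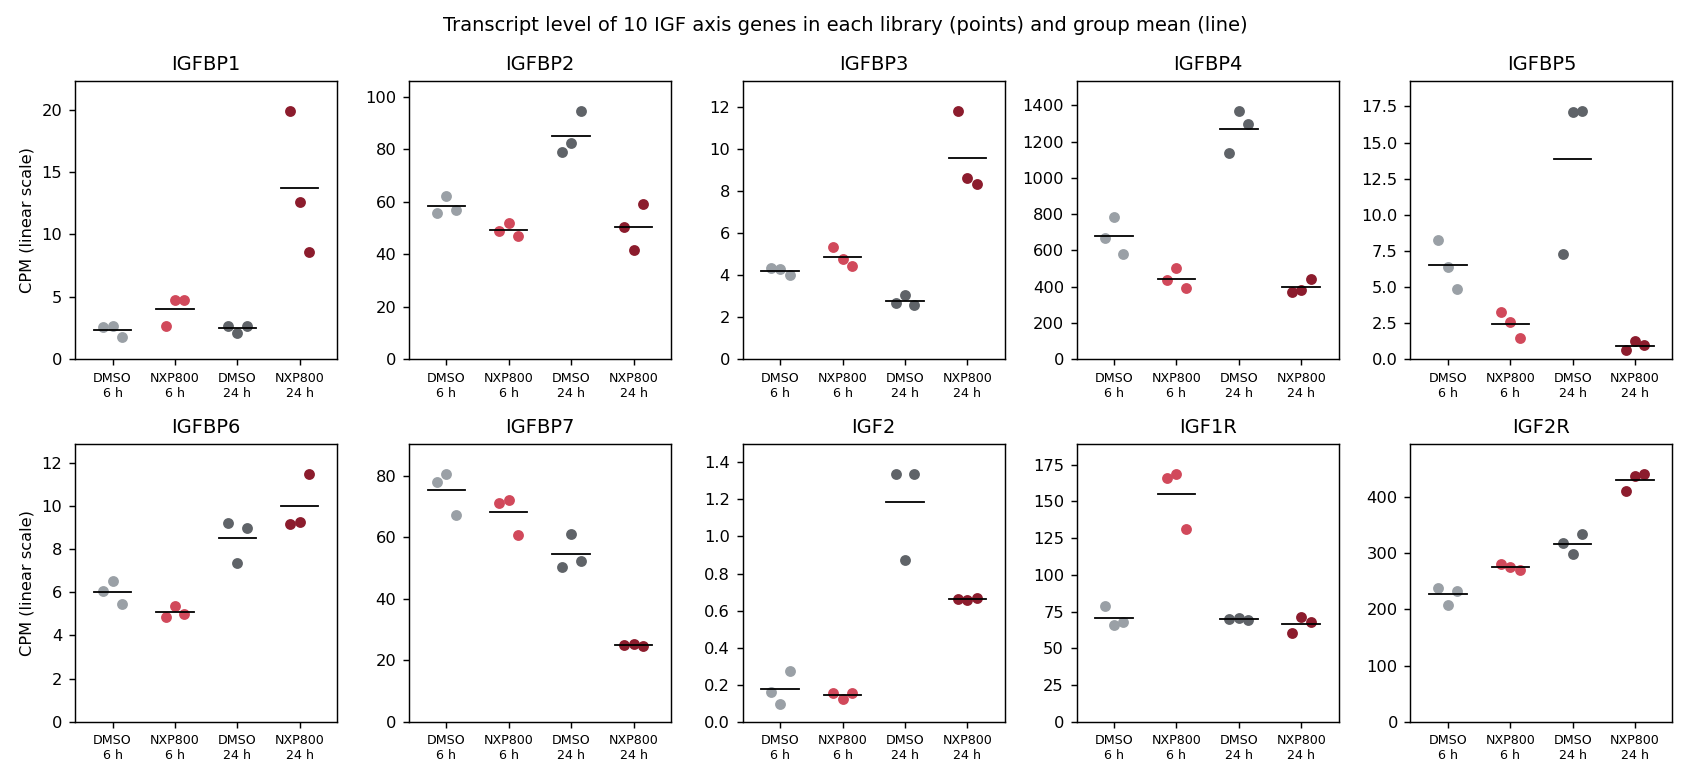
Level of each of the 10 genes in CPM (counts scaled by library size and TMM factor) (linear vertical axes from 0), in the 4 conditions on the horizontal axis. Points are single libraries and lines are means of 3. *IGFBP4* stands near 1137 to 1370 CPM in DMSO at 24 h and at 369 to 441 in NXP800, and *IGF1R* is high only in the 6 h NXP800 libraries (131 to 169 CPM).

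Among the ligands, *IGF2* encodes the fetal growth factor that binds both receptors. It had 3 to 9 counts per library in DMSO and 4 to 5 in NXP800 at 6 h, which leaves the direction undetermined (log2 fold change -0.30, 95% interval -1.29 to 0.70, adjusted p = 0.640). At 24 h the DMSO libraries had 40, 26 and 39 counts and the NXP800 libraries 20, 21 and 21. These groups do not overlap, and the log2 fold change was -0.83 (SE 0.268, adjusted p = 0.0145). The call was lost with DESeq2's Wald test (adjusted p = 0.0885) and without DMSO 24 h replicate 1 or 3 (0.0584 and 0.0592). Other annotated genes cover 44.4% of the exon length of *IGF2*, so reads there may not be assigned to *IGF2*. Among them are the readthrough *INS-IGF2* on the same strand and *IGF2-AS* on the other. *IGF2-AS*, named here after its values were seen, had 15 to 26 counts in DMSO and 29 to 34 in NXP800 at 6 h. At 24 h it had 51 to 54 in DMSO and 70 to 76 in NXP800. Its log2 fold changes were 0.61 and 0.41 (edgeR, adjusted p = 0.0331 and 0.0656). Its part in the *IGF2* result was not tested. *IGF1* and *INS*, the other ligands, had 0 counts in all 12 libraries, as had *INS-IGF2*.

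Of the receptors, *IGF1R* encodes the signalling receptor. In DMSO at 6 h its libraries had 78.6, 66.1 and 67.6 CPM, and in NXP800 at 6 h 166, 169 and 131 CPM (counts scaled by library size and TMM factor). All NXP800 libraries were above all DMSO libraries, with a log2 fold change of 1.13 (SE 0.0939, adjusted p = 6.85e-08). At 24 h the groups overlapped, with 70.1, 70.5 and 69.6 CPM in DMSO and 60.5, 71.2 and 67.9 CPM in NXP800, and the log2 fold change was -0.07 (95% interval -0.27 to 0.13, adjusted p = 0.528). DMSO levels were thus alike in the 6 h and 24 h libraries, and only the 6 h NXP800 libraries stood apart. The 24 h response was 1.21 lower than the 6 h response on the log2 scale (difference -1.21, SE 0.133, adjusted p = 9.67e-06).

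*IGF2R*, the clearing receptor, was higher under NXP800 at both times. At 6 h it had 239, 208 and 233 CPM in DMSO and 280, 275 and 270 in NXP800, with a log2 fold change of 0.28 (SE 0.0668, adjusted p = 0.00218). At 24 h it had 318, 298 and 335 CPM in DMSO and 410, 437 and 442 in NXP800, a log2 fold change of 0.44 (SE 0.0667, adjusted p = 3.46e-05). The groups did not overlap at either time. The responses at the 2 times were not shown to differ (difference 0.16, 95% interval -0.04 to 0.36, adjusted p = 0.237). *INSR*, the insulin receptor gene, had 109 to 335 counts per library and passed at neither time (log2 fold changes of -0.10 and 0.38, adjusted p = 0.682 and 0.0599). *INSRR*, the insulin receptor-related receptor, and *IGFALS*, the subunit that stabilizes IGF complexes in blood, had at most 2 counts in any library.

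The most abundant binding protein transcript was *IGFBP4*. At 6 h it had 666, 782 and 581 CPM in DMSO and 438, 500 and 391 CPM in NXP800, and it fell by 0.61 on the log2 scale (SE 0.112, adjusted p = 2.59e-04). At 24 h it had 1137, 1370 and 1296 CPM in DMSO and 369, 383 and 441 CPM in NXP800, and it fell by 1.67 (SE 0.115, adjusted p = 5.45e-09). NXP800 libraries lay below all DMSO libraries at both times. The 24 h response was stronger (difference -1.06, SE 0.159, adjusted p = 1.55e-04). The DMSO mean was 1268 ± 119 CPM at 24 h against 676 ± 101 at 6 h (SD, n = 3 each), while the NXP800 means were 398 ± 38.2 and 443 ± 54.7 CPM, so it was the DMSO level that differed most between the times. These are bulk libraries, in which fewer cells with the transcript and less transcript per cell cannot be told apart.

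*IGFBP5*, the matrix-bound family member, had the largest fold change of the 10 genes at both times. Its 6 h libraries had 8.27, 6.40 and 4.83 CPM in DMSO and 3.25, 2.60 and 1.47 CPM in NXP800, and it fell by 1.41 on the log2 scale (SE 0.329, adjusted p = 0.00187). At 24 h it had 218, 510 and 500 counts in DMSO and 18, 40 and 30 counts in NXP800, a fall by 3.88 (SE 0.369, adjusted p = 2.27e-07). DMSO 24 h replicate 1 stood below the other DMSO libraries of that time, and without it the log2 fold change was -4.19. The difference of the responses was -2.47 (SE 0.507, adjusted p = 0.00209). Of the osteoblast lineage markers given above, *SPARC* and *COL1A1* also fell and *RUNX2* rose, and their part in this result was not tested. *DIRC3-AS1*, on the opposite strand, covers 7.53% of the exon length.

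*IGFBP2*, the neighbour of *IGFBP5* on chromosome 2, had 55.6, 62.1 and 56.9 CPM in DMSO and 48.7, 51.9 and 47.0 CPM in NXP800 at 6 h. These values do not overlap, but the log2 fold change of -0.24 missed the threshold (SE 0.103, adjusted p = 0.0585). It passed with the replicate number as a block (adjusted p = 0.00203), with no filter on low counts (0.0123), with only the 6 libraries of the time point (0.0133) and without NXP800 24 h replicate 2 or 3 (0.0413 and 0.0235). The 24 h libraries had 78.8, 82.3 and 94.7 CPM in DMSO and 50.2, 41.7 and 59.1 CPM in NXP800, and fell by 0.76 (SE 0.103, adjusted p = 1.05e-05). The response was larger at 24 h (difference -0.52, SE 0.145, adjusted p = 0.0155). The DMSO means were 58.2 ± 3.42 CPM at 6 h and 85.3 ± 8.37 at 24 h (SD, n = 3 each). The NXP800 means were 49.2 ± 2.49 and 50.3 ± 8.71 CPM, so the DMSO level differed most between the times.

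*IGFBP7*, the low-affinity member of the group, is expressed in vessels and stroma of many tissues. At 6 h its groups overlapped, with 78.1, 80.7 and 67.3 CPM in DMSO and 71.2, 72.2 and 60.8 CPM in NXP800, and the log2 fold change was -0.15 (95% interval -0.33 to 0.04, adjusted p = 0.174, and 0.0217 with the replicate block). The later libraries had 50.3, 61.1 and 52.4 CPM in DMSO and 25.1, 25.4 and 24.5 CPM in NXP800, and fell by 1.13 (SE 0.0920, adjusted p = 4.00e-08). The 3 NXP800 libraries were nearly equal and well below DMSO. The difference of the responses was -0.98 (SE 0.127, adjusted p = 4.44e-05). The antisense gene *IGFBP7-AS1* and the RNA polymerase II subunit gene *POLR2B*, both on the opposite strand, cover 18.3% of its exon length. The endothelial marker *VWF* also fell at 24 h, on 15 to 17 counts in DMSO and 2 to 6 in NXP800. *PECAM1* did not pass at 24 h (edgeR, log2 fold change -0.56, adjusted p = 0.271). *CDH5* and *TEK* had at most 7 counts in any library. The part of these markers in this result was not tested.

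*IGFBP1* encodes the binding protein that liver secretes in fasting and under insulin control, and its gene is also known as a target of stress signalling. It had low counts in DMSO, 82, 83 and 57 at 6 h, against 87, 154 and 153 in NXP800. The lowest NXP800 library barely exceeded the highest DMSO library (2.67 against 2.62 CPM). The log2 fold change was 0.80 (SE 0.295, adjusted p = 0.0314), and the call was lost without DMSO 6 h replicate 3, NXP800 6 h replicate 2 or NXP800 6 h replicate 3 (adjusted p = 0.121, 0.108 and 0.102). At 24 h the DMSO libraries had 80, 63 and 76 counts and the NXP800 libraries 603, 403 and 269. The log2 fold change was 2.47 (SE 0.279, adjusted p = 1.53e-06), and with any one library left out it stayed between 2.10 and 2.72. The NXP800 libraries spread widely, from 8.58 to 19.9 CPM, but lay far above the 2.12 to 2.68 CPM of DMSO. The difference of the responses was 1.67 (SE 0.408, adjusted p = 0.00685).

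*IGFBP3*, the neighbour of *IGFBP1* and the main carrier of IGFs in blood, rose at 24 h and did not pass at 6 h. At 6 h it had 4.31, 4.26 and 4.01 CPM in DMSO and 5.34, 4.77 and 4.42 CPM in NXP800. These values do not overlap, but the log2 fold change of 0.21 did not pass (95% interval -0.10 to 0.52, adjusted p = 0.251). Its 24 h libraries had 2.64, 3.06 and 2.58 CPM in DMSO and 11.8, 8.59 and 8.33 CPM in NXP800, and it rose by 1.79 on the log2 scale (SE 0.151, adjusted p = 5.75e-08). The difference of the responses was 1.58 (SE 0.212, adjusted p = 6.19e-05).

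*IGFBP6*, which prefers IGF2 over IGF1, was the binding protein gene that passed at neither time. At 6 h it had 6.08, 6.53 and 5.44 CPM in DMSO and 4.85, 5.35 and 5.00 CPM in NXP800 (log2 fold change -0.25, 95% interval -0.52 to 0.03, adjusted p = 0.128), and these groups did not overlap. At 24 h the groups overlapped, with 9.23, 7.36 and 8.96 CPM in DMSO and 9.18, 9.25 and 11.5 CPM in NXP800 (log2 fold change 0.23, 95% interval -0.03 to 0.49, adjusted p = 0.126). With the replicate block the 24 h value passed (adjusted p = 0.0423), as did the difference of the responses of 0.47 (adjusted p = 0.0135 with the block and 0.0639 without).

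**Figure D2:**
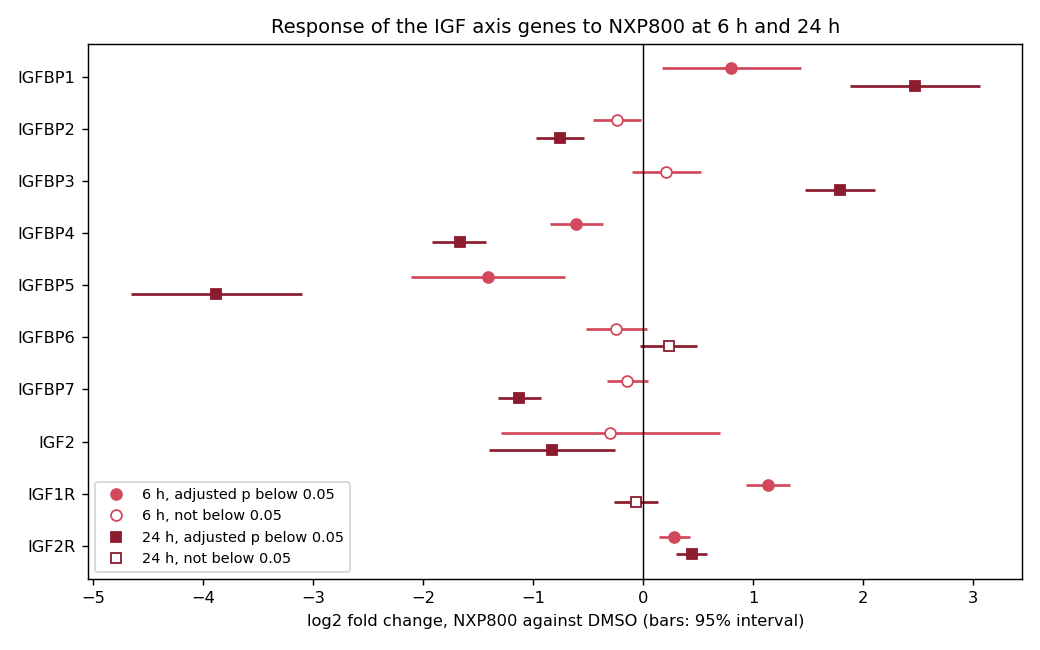
Log2 fold change of NXP800 against DMSO (horizontal axis) for the 10 genes, at 6 h (circles) and 24 h (squares), with 95% intervals as bars. Filled symbols have an adjusted p below 0.05. *IGFBP5*, *IGFBP4*, *IGFBP7* and *IGFBP2* lie further to the left at 24 h and *IGFBP1* and *IGFBP3* further to the right, while *IGF1R* moves from 1.13 at 6 h to -0.07 at 24 h.

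The difference between the responses, 24 h minus 6 h, passed the threshold for 7 of the 10 genes, beside 25.8% of all tested genes. It was higher for *IGFBP1* and *IGFBP3* and lower for *IGF1R*, *IGFBP2*, *IGFBP4*, *IGFBP5* and *IGFBP7*. For 6 of these 7 genes the estimated log2 fold change had the same sign at both times and was larger in size at 24 h. *IGF1R* was the exception, with the larger response at 6 h. *IGFBP2*, *IGFBP3* and *IGFBP7* did not pass at 6 h (edgeR, adjusted p = 0.0585, 0.251 and 0.174). Their direction at 6 h is therefore not established. The share of read pairs outside genes differed between the times, as given above, and a technical difference of this kind cannot be told apart from time.

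Levels can be compared between genes when counts are divided by length. In CPM per kb of annotated exon, the order in DMSO at 6 h began with *IGFBP4* (307 ± 45.7, SD, n = 3), followed by *IGFBP7* (39.0 ± 3.68), *IGFBP2* (12.3 ± 0.721) and *IGF2R*. *IGF1R* (5.08 ± 0.488) and *IGFBP6* (4.47 ± 0.407) came next and overlapped each other. *IGFBP1* (1.41 ± 0.308) overlapped *IGFBP5* (1.01 ± 0.266), which overlapped *IGFBP3* (0.917 ± 0.0349), and *IGF2* came last (0.0246 ± 0.0127). *IGFBP4* was first and *IGF2* last in all 4 conditions. In NXP800 at 24 h *IGF2R* stood above *IGFBP7* (12.9 ± 0.217 CPM per kb), its libraries not overlapping those of *IGFBP7*, and *IGFBP1* (8.35 ± 3.50) reached the range of *IGFBP2* (10.6 ± 1.84) and *IGFBP6* (7.42 ± 0.989). *IGFBP5* (0.145 ± 0.0511 CPM per kb) overlapped *IGF2* there. The middle ranks depend on the length taken for *IGFBP2*, whose union of exons (4742 bases) is longer than its canonical transcript (1414 bases). With canonical lengths *IGFBP2* stood above *IGFBP7* in DMSO at 24 h (60.3 against 38.2 CPM per kb).

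The summed level of the 7 binding protein transcripts at 6 h was 366 ± 50.5 CPM per kb (SD, n = 3) in the DMSO libraries and 254 ± 28.5 in the NXP800 libraries, and their ratio was 0.695. At 24 h it was 632 ± 57.4 against 222 ± 16.5 CPM per kb, a ratio of 0.351. The groups did not overlap at either time. The two-sided exact permutation test then must give p = 0.100, the smallest that 3 libraries against 3 allow, so it adds nothing to that separation. *IGFBP4* made up 83.8 ± 0.962% of the sum in DMSO and 79.0 ± 0.918% in NXP800 at 6 h, and 91.0 ± 0.312% and 81.2 ± 2.20% at 24 h. The share of *IGFBP1* at 24 h was 0.241 ± 0.0488% in DMSO and 3.83 ± 1.78% in NXP800, and that of *IGFBP3* was 0.0958 ± 0.00762% and 0.951 ± 0.234%.

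**Figure D3:**
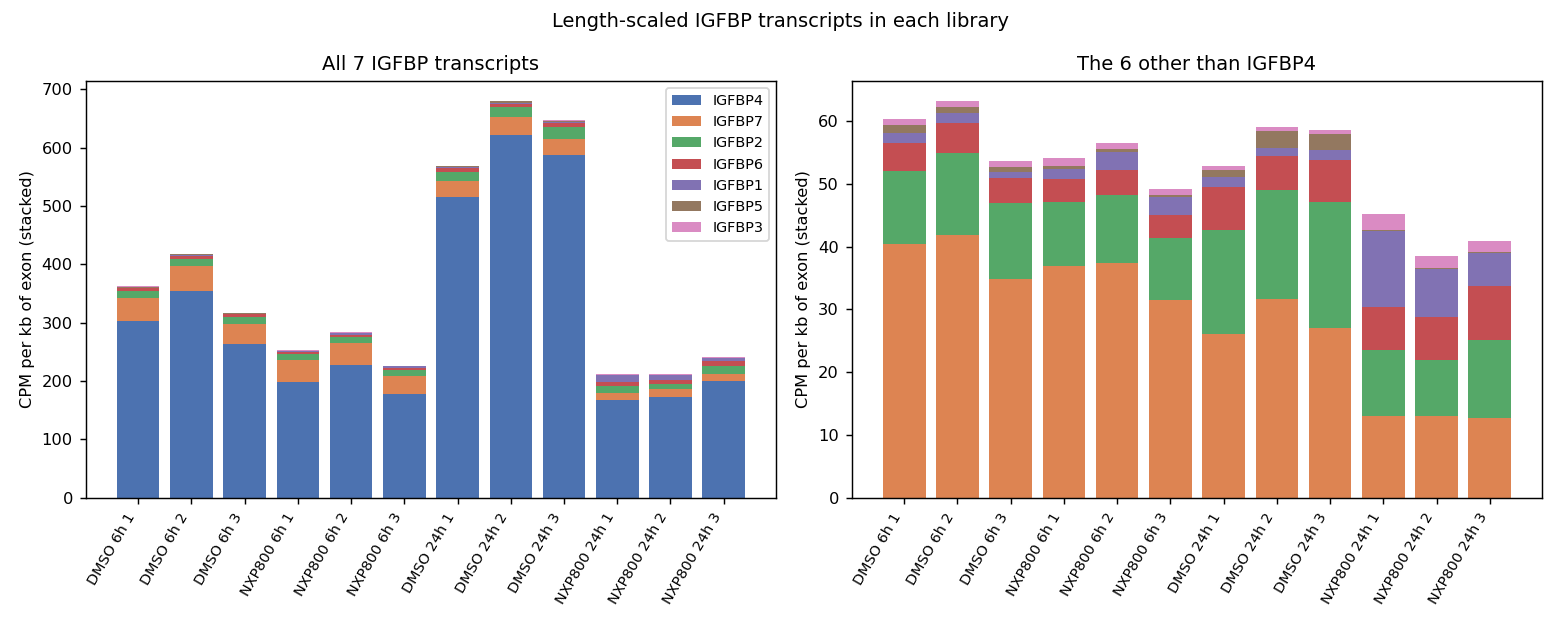
Stacked CPM per kb of exon of the 7 IGFBP transcripts in each library (left) and of the 6 other than *IGFBP4* on a larger scale (right), both from 0. The bars of DMSO at 24 h are the tallest on the left (mean 632), and the *IGFBP1* part on the right is widest in the NXP800 24 h libraries (mean 8.35).

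The other genes of the axis were taken from 6 lists of 52 genes in all, of which 41 could be tested. At 6 h 13 were higher and 15 lower, and at 24 h 11 were higher and 13 lower. This is 68.3% called at 6 h and 58.5% at 24 h, beside 52.8% and 56.0% of all tested genes. The median log2 fold change of the 41 genes was 0.06 at 6 h and -0.06 at 24 h. The genes counted as higher include *PAPPA2* at both times and *ESM1* at 6 h. Both had enough counts to be tested only through NXP800 libraries, in which they are high.

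Among genes of proteases that cut IGFBPs and their inhibitors, 4 of 8 tested were higher and 2 lower at 6 h, and 4 were higher and 3 lower at 24 h, beside 25.0% and 27.5% of all tested genes that were higher. *PAPPA*, whose product pappalysin-1 cuts IGFBP4, rose from 34 to 37 counts per library in DMSO to 173 to 185 in NXP800 at 6 h (log2 fold change 2.34, adjusted p = 4.28e-08). After 24 h it had 16 to 27 counts in DMSO and 77 to 115 in NXP800 (log2 fold change 2.13, adjusted p = 3.65e-07). *PAPPA2*, whose product cuts IGFBP3 and IGFBP5, had 4 to 5 counts in DMSO and 17 to 24 in NXP800 at 6 h, and 0 to 3 counts in DMSO and 157 to 175 in NXP800 at 24 h (adjusted p = 2.97e-04 and 3.47e-10). The DMSO counts are too few for a precise ratio. *PAPPA2* had enough counts to be tested only through the NXP800 libraries, in which it is high.

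The stanniocalcins inhibit the pappalysins. *STC1* went in opposite directions, rising at 6 h from 23.7 ± 2.08 to 62.5 ± 8.04 CPM (SD, n = 3 each), a log2 change of 1.40 (adjusted p = 6.93e-06), and falling at 24 h from 11.6 ± 3.26 to 4.22 ± 1.52 CPM, a log2 change of -1.47 (adjusted p = 2.81e-05). The difference of these responses was -2.87 (adjusted p = 3.75e-06). *STC2*, named here after its values were seen, rose at both times, from 249 ± 8.04 to 813 ± 47.1 CPM and from 221 ± 24.8 to 630 ± 43.1 CPM (log2 fold change 1.71 and 1.51, adjusted p = 2.25e-10 and 4.83e-10). *HTRA1*, a serine protease gene, had the largest fall of the list at 6 h (log2 fold change -0.67, adjusted p = 0.00224).

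Of 7 tested genes of IGFBP-related proteins, 1 was higher and 4 lower at 6 h, and 5 passed at 24 h, all of them lower, beside 27.8% and 28.6% of all tested genes that were lower. *IGFBPL1*, an IGFBP-like gene, fell at both times (log2 fold change -0.88 and -2.14, adjusted p = 6.60e-04 and 1.26e-07). *CCN2*, which encodes connective tissue growth factor, and *KAZALD1*, which tie at this rounding, each fell by 1.05 at 6 h (adjusted p = 8.04e-05 and 4.97e-07). *ESM1*, the gene of endocan, was the one that rose at 6 h, on 7 to 9 counts in DMSO and 15 to 20 in NXP800 (adjusted p = 0.00781), and it had enough counts to be tested only through those NXP800 libraries. At 24 h its log2 fold change was 0.65 (adjusted p = 0.173).

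Downstream of the receptor, 4 of 10 tested genes of adaptors and proximal effectors of IGF1R were higher and 4 lower at 6 h, and 4 were higher and 2 lower at 24 h, beside 52.8% and 56.0% of all tested genes called in either direction. *IRS2*, an insulin receptor substrate, had the largest rise at both times, from 10.9 ± 0.898 to 24.5 ± 2.93 CPM and from 13.8 ± 1.15 to 26.3 ± 2.29 CPM (SD, n = 3 each, log2 fold change 1.18 and 0.93, adjusted p = 1.69e-07 and 1.47e-06). *PIK3R2*, a regulatory subunit of PI3K, had the largest fall at both times (log2 fold change -0.68 and -0.49, adjusted p = 1.49e-06 and 3.17e-05).

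For the *IGF2* transcript and locus, 3 of 7 tested genes were higher and 1 lower at 6 h, and 1 was higher and 1 lower at 24 h. This is 57.1% called at 6 h and 28.6% at 24 h, beside 52.8% and 56.0% of all tested genes. *IGF2BP2* rose by 0.62 at 6 h (adjusted p = 6.12e-05) and *IGF2BP3*, which also encodes an RNA-binding protein of *IGF2* mRNA, fell at both times (log2 fold change -0.42 and -0.66, adjusted p = 9.28e-04 and 1.28e-05). *PLAG1*, a transcription factor gene, rose by 0.37 at 24 h (adjusted p = 0.00856). Of 8 genes of IGF2R partners and the mannose 6-phosphate pathway, 1 was higher and 4 lower at 6 h. At 24 h 2 were higher and 2 lower. These counts stand beside 52.8% of all tested genes called in either direction at 6 h and 56.0% at 24 h. *PLAUR*, which encodes the urokinase receptor, rose at both times (log2 fold change 0.42 and 0.71, adjusted p = 0.00460 and 4.76e-05), and *GGA2*, which encodes a sorting adaptor of the trans-Golgi network, fell at both times (-0.96 and -0.56, adjusted p = 3.75e-09 and 7.69e-07).

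**Figure D4:**
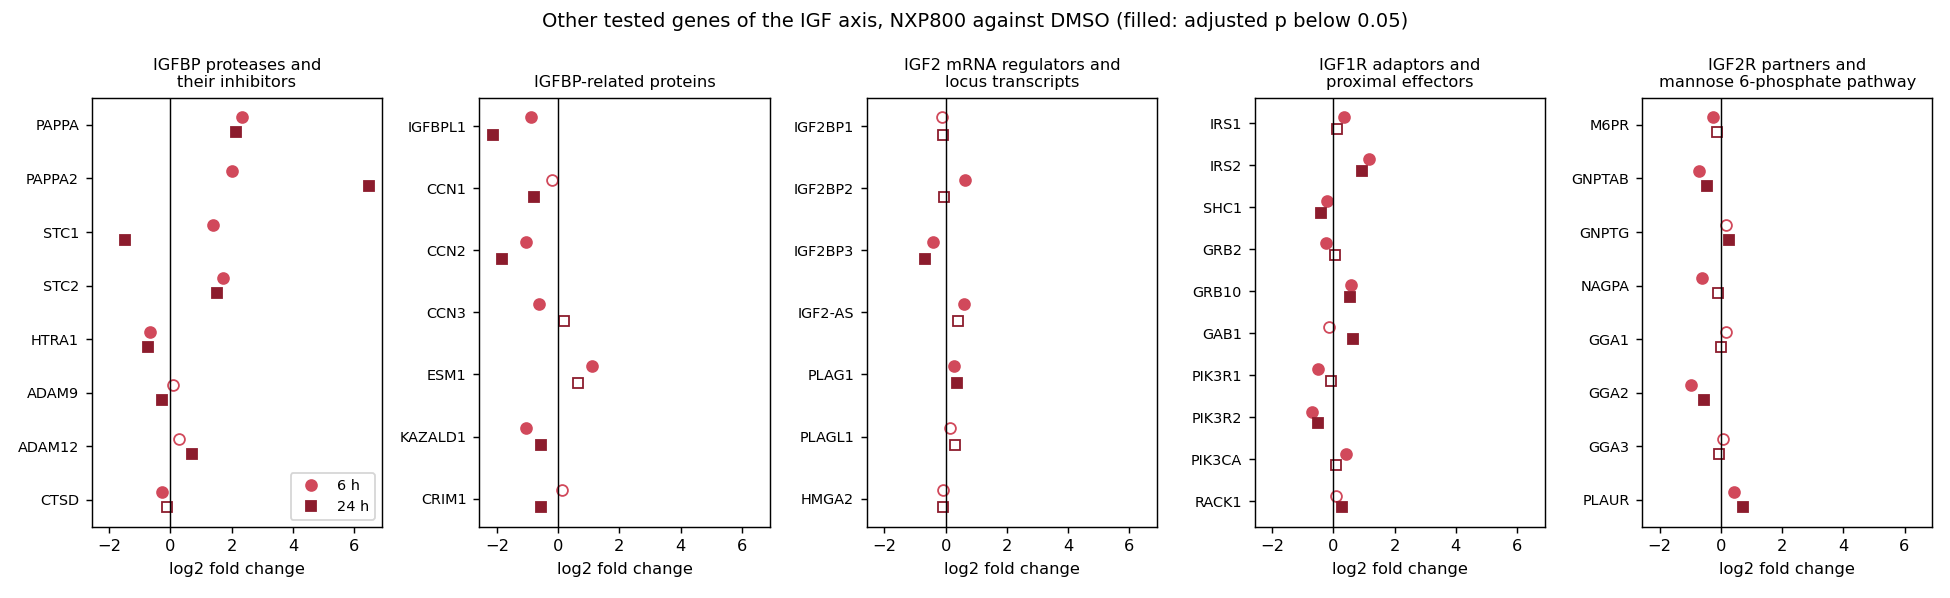
Log2 fold change of NXP800 against DMSO (horizontal axes) for the tested genes of 5 lists of the IGF axis, at 6 h (circles) and 24 h (squares), filled where the adjusted p is below 0.05. *PAPPA2* at 24 h lies furthest to the right and *IGFBPL1* at 24 h furthest to the left. The list of other ligands and receptors is not drawn, since only *INSR* could be tested.

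The genes whose levels over the 12 libraries were most like those of *IGFBP5*, the gene of the 10 with the largest fold change at 6 h, were *AP1M2*, *NMT2*, *MEST*, *FJX1* and *TGM2*. Pearson's r of log2 CPM lay between 0.981 and 0.984, the 5 highest of 11884 genes compared. The 12 libraries form 4 conditions, so r includes the differences between conditions and is given as a description. The 5 genes differed in size of change: *AP1M2* had log2 fold changes of -0.45 (6 h) and -2.09 (24 h), *MEST* of -0.58 and -2.28 and *TGM2* of -0.60 and -2.40, whereas *NMT2* had -0.30 and -0.55 and *FJX1* -0.14 and -0.50. *IGFBP5* had -1.41 and -3.88.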

How the data were processed

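The authors trimmed reads with fastp 0.20.1, aligned them with STAR 2.7.5a to hg38 and counted them with HTSeq 0.12.4 on RefSeq genes of GRCh38.p14, per the submitters' processing notes and the methods. Strand setting and counting mode are not given in the sources used here. Each deposited value is a raw, unscaled count for a gene symbol. Summary lines that name no gene were left out. Totals per library lay between 30810614 and 31947656.

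The tests used edgeR 4.0.16 under R 4.3.3: filterByExpr, TMM scaling and the quasi-likelihood test in one model of the 4 groups, with Benjamini-Hochberg adjustment over 15979 genes. SE and intervals come from the F statistic. Exon lengths and overlaps are from GENCODE. Replicates differed by more than sampling noise (chi-square per degree of freedom 7.95 to 28.6). Same-numbered DMSO and NXP800 libraries of a time point correlated after removal of group means (r 0.410 to 0.574, other pairs -0.450 to -0.0185). Removing the means pushes the other pairs below 0 when same-numbered pairs lie above it, so the ranges are not independent. The same-numbered values alone point to a pairing by number. The main model left this pairing out, and the replicate block used it. The labels are the only source of the pairing.

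The members and lists were chosen with earlier results of these data known. Named genes were all members, the called gene with the largest rise and fall of each list at each time, the other ligands and receptors, and the 5 genes most like the member with the largest change at 6 h. Alternatives were 2 other scalings, 2 other filters, single time points, the replicate block, DESeq2 1.42.0, a threshold of 0.01 and each library left out. On data simulated for the 6 h comparison (15607 genes), 92 of 100 genes changed 1.5-fold and 100 of 100 changed 2-fold were recovered, with 8 other calls. The simulation gave all genes a common dispersion (0.00723), no pairing and far fewer changed genes than were called in the data. Its rates do not carry over to genes with a wider spread, such as *IGFBP5* (SE 0.329) and *IGFBP1* (SE 0.295) at 6 h.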

Additional observations from a re-analysis of the deposited data

Results flagged for a closer look

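By the test of the difference itself in edgeR, the response to NXP800 differed between the time points for 7 of the 10 genes. This stands beside 25.8% of all tested genes. Time and any technical difference between the 6 h and 24 h libraries cannot be told apart. The log2 fold change at 24 h minus that at 6 h was 1.67 for *IGFBP1* (adjusted p = 0.00685), 1.58 for *IGFBP3* (6.19e-05), -0.52 for *IGFBP2* (0.0155), -1.06 for *IGFBP4* (1.55e-04), -2.47 for *IGFBP5* (0.00209), -0.98 for *IGFBP7* (4.44e-05) and -1.21 for *IGF1R* (9.67e-06). With any one library left out, all 7 kept their sign and stayed below an adjusted p of 0.05, the highest being 0.0437 for *IGFBP2*. Groups of 3 libraries are too small for a test of single outlying libraries.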

How the results depend on the processing

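Of 586 values of the 10 genes recomputed under the alternatives, 565 kept their direction and their side of the threshold and 2 changed sign, both for values that had not passed: *IGF2* at 6 h without DMSO 6 h replicate 3 (0.17, in a range of -0.59 to 0.17 with any one library left out) and *IGF1R* at 24 h with library size only (0.02). With the replicate block 4 genes instead of 2 were lower at 6 h, the added ones being *IGFBP2* and *IGFBP7*, and *IGFBP6* passed at 24 h and in the difference. The block changed no other call among the 10 genes. Over all 15979 tested genes it raised the calls from 8435 to 9953 at 6 h and from 8953 to 10411 at 24 h. Scaling by library size only moved the median log2 fold change of all genes at 24 h from -0.003 to 0.086 and the share of higher calls from 49.0 to 58.7%, and *IGFBP6* then passed at 24 h (0.32, adjusted p = 0.0362). Calls over all genes in the difference of the responses numbered 4129, and 6284 with the block and 2236 at an adjusted p below 0.01. With canonical transcript lengths, chosen after the data were seen, *IGFBP4* made up 74.5% of the binding protein sum in DMSO and 68.3% in NXP800 at 6 h, and 83.6% and 70.2% at 24 h, since *IGFBP2* then weighs more. With the union of exons as length and a library left out of its group, the *IGFBP4* share stayed within 80.3 to 82.4% in NXP800 at 24 h. *IGF2* had 3 to 9 counts at 6 h, so depth limits its value there.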

Other observations

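The tested genes within 500 kb of the neighbouring pairs were looked at after the pairs were seen. Around *IGFBP1* and *IGFBP3*, 2 of 5 genes were higher and 1 lower at 6 h, and 1 was higher at 24 h by edgeR's test, *ADCY1*, an adenylyl cyclase gene (log2 fold changes of -0.48 and 0.76, adjusted p = 0.00567 and 6.58e-05). Around *IGFBP2* and *IGFBP5*, 3 of 7 genes passed at 6 h, all lower (*LINC01963* -0.73, *SMARCAL1* -0.31 and *RPL37A-DT* -1.03 on the log2 scale). *IGFBP2* itself did not pass at 6 h. At 24 h 1 gene was higher, *RPL37A*, a ribosomal protein gene (log2 fold change 0.33, adjusted p = 7.84e-04). Of all tested genes 52.8% were called at 6 h, with 25.0% higher and 27.8% lower. At 24 h 56.0% were called, with 27.5% higher and 28.6% lower.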
